A study of Mus musculus with 120 samples.

Results

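The repeat sequences described here were the 97 rows of the repeat class whose names did not start with IAP, MERV, MMERV, MuRV, RLTR, ERV, ETn, LTR, MMTV, MMVL, MT or ORR. They were 97 of 313 repeat rows, and the other 216 carried those names of endogenous retroviruses and their long terminal repeats (LTRs). Each row is 1 consensus sequence, and its value is the number of small RNA reads assigned to it. Levels are given as CPM, the reads of a row per 1000000 reads of the library's total, and as the members' share of all repeat reads. By name and class the members were 45 LINE-1 (L1) sequences of 599 to 7397 bases, 4 SINEs of 90 to 208 bases, 7 satellites of 319 to 2547 bases, the L32 pseudogene of 407 bases and 4 other repeats. The remaining 36 members, with names such as BGLII, RMER15 and MYSERV, carried the classes ERV or LTR in the same file, so the label of LINE, SINE and other repeats did not hold for them, and they are given apart. Of the 97 members, 89 had at least 1 read in some library, and 8 (MMETN, RMER17D2_MM, RMER17D_MM, RMER19, C573, CYRA11_MM, RMER20 and YREP) were listed at 0 in every library.

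L1 elements are the self-copying retrotransposons of the mouse genome, and encode an RNA-binding protein and a protein with endonuclease and reverse transcriptase activity. The L1MdTf, L1MdGf and L1MdA families are the young ones with copies that still move, whereas the Lx names are older rodent families. SINEs such as B1, which derives from the RNA of the signal recognition particle, and B2, which derives from a tRNA, encode no protein and are copied by the L1 enzymes. GSAT_MM is the major satellite of the pericentromeric heterochromatin, and SATMIN the minor satellite of the centromere. In the male germ line, PIWI proteins loaded with piRNAs silence L1 by slicing its transcripts and directing DNA methylation. L32 stands for processed copies of the mRNA of Rpl32, a protein of the large ribosomal subunit, whose parent gene lies on the minus strand of chromosome 6 (115805505 to 115808747, mm10).

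The libraries hold mouse small RNA of less than 40 nt from testicular and epididymal tissue, sperm, germ cells and epididymosomes (vesicles shed into the lumen of the epididymis), and were made to ask which small RNAs sperm gain after they leave the testis. All mice were on control diet and 8 to 12 weeks old. Of the 7 cauda sperm libraries of the maturation table, 3 are titled 12 weeks and 3 titled 9 weeks, with the same 3 title numbers at both ages, whose meaning was not given; 1 title gives no age. Of the series, 114 of the 120 libraries, in 7 tables, were used. Totals ran from 156347 to 56011165 reads per library, and the members took 20 to 19120 of them. Labels do not say that replicates came from separate animals, so p-values measure only the spread between these libraries.

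The maturation table held fused testicular sperm (n = 2, testicular sperm with caput epididymosomes, in a table of its own beside the mock), cauda epididymosomes (n = 3), cauda sperm (n = 7), testicular sperm (n = 4), mock-fused testicular sperm (n = 2) and 1 library each of primary spermatocytes, early round spermatids, late round spermatids and caput sperm. No strain was given for these, and no 2 of the 4 testicular sperm titles have the same mark (they read 2X, NaCl, somatic and fusion untreated). The wash table held cauda sperm washed with 0.1% SDS and 0.5% Triton-X (high), with 0.1% SDS and 0.005% Triton-X (mid) or with 0.01% SDS and 0.005% Triton-X (low), and sperm not washed (No SLB), with 5 libraries each and FVB in their titles. The wash titles of set 1 end in FVBTA and those of sets 2 to 5 in FVBCDIET. What these marks mean was not given, so set 1 may differ from the others in more than its number. Heads (n = 3), tails (n = 4) and whole sperm (n = 6) came from cauda sperm put through a hypotonic or a detergent wash. Testis heads (n = 3), tails (n = 2) and whole sperm (n = 2) were of the detergent wash. Tissue of the cauda epididymis and of the testis was cloned after treatment with PNK, PNK 3 minus, RPPH or AlkB, or untreated. For each there were 2 libraries titled acid and 2 titled base, and what these titles mean was not given. The titles also carry a number, 1 or 2, each once as acid and once as base. Whether the acid and base libraries of 1 number came from the same sample was not given. The fits took all 4 as separate, so their p-values and SDs may rest on 2 samples per group. Sperm from the caput and the cauda went into libraries made with PNK or with no kinase (n = 3 each).

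Across germ cell stages, repeat fragments were most abundant in primary spermatocytes, at 316 CPM, of which 296 CPM were L1. Early and late round spermatids had 191 and 194 CPM. The 4 testicular sperm libraries had 147 to 259 CPM (194 ± 47.0, SD), the caput sperm library 211 CPM, the 7 cauda sperm libraries 39.9 to 124 CPM with a median of 66.4, and the cauda epididymosomes 62.4 to 70.4 CPM. As a share of all repeat reads the members were 29.4% in spermatocytes, 23.4% and 23.5% in spermatids, 22.8% ± 2.51 in testicular sperm, 23.8% in caput sperm, 21.0% ± 4.33 in cauda sperm and 14.5% ± 1.21 in epididymosomes. These stages with 1 library have no replicate check and no test.

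**Figure D1:**
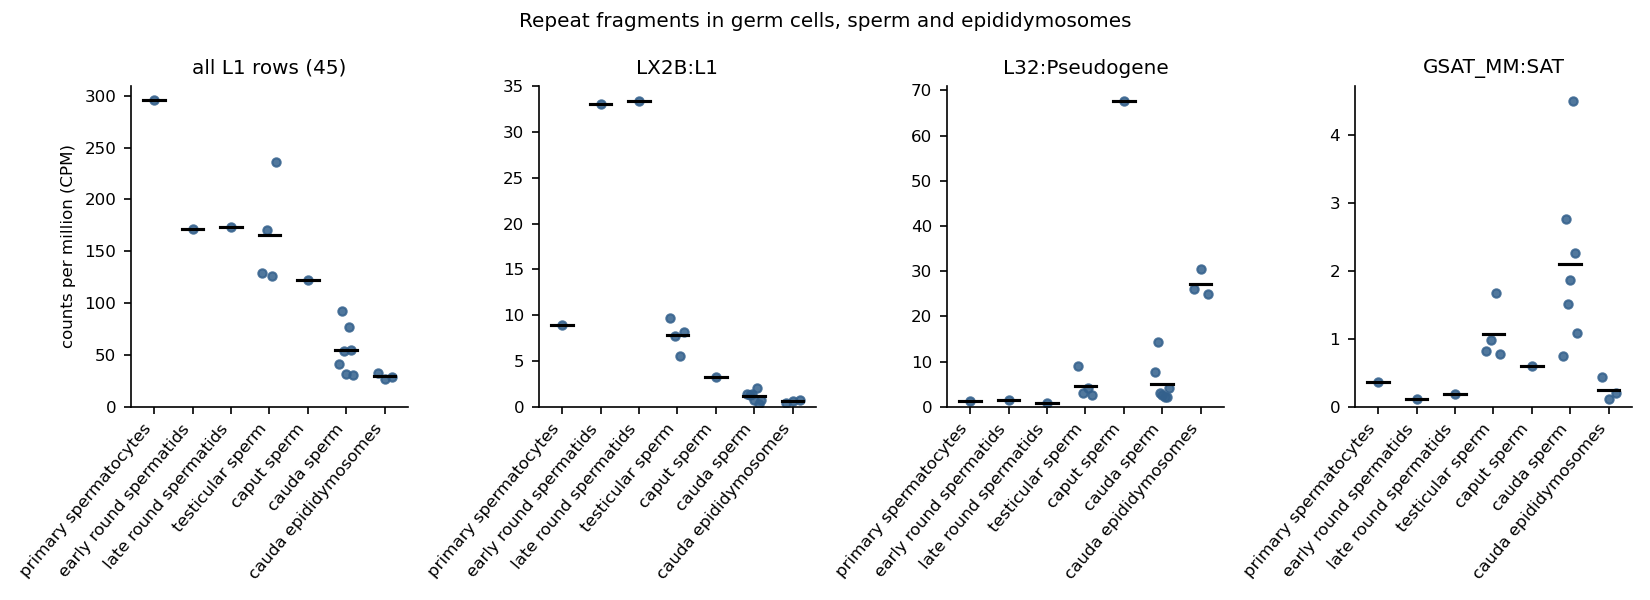
CPM per library along the stages of the maturation table for the summed L1 rows, LX2B, L32 and GSAT_MM, with 1 point per library and a bar at the mean. The L1 rows stand highest in spermatocytes at 296 CPM and LX2B in the spermatids at 33.1 and 33.4 CPM, L32 stands highest in caput sperm at 67.6 CPM, and GSAT_MM in a cauda sperm library at 4.49 CPM.

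The make-up of the L1 reads also differed along these stages. The 3 L1MdTf rows held 73.9% of L1 reads in spermatocytes, 47.1% and 44.3% in early and late round spermatids, 61.2% ± 5.9 in testicular sperm, 27.4% in caput sperm, 48.8% ± 3.1 in cauda sperm and 33.8% ± 1.1 in epididymosomes. The 15 Lx rows held 8.21% in spermatocytes, 29.5% and 29.3% in the spermatids, 13.7% ± 2.3 in testicular sperm, 26.2% in caput sperm, 15.7% ± 3.0 in cauda sperm and 25.7% ± 1.7 in epididymosomes. In spermatids the Lx share was thus close to that of epididymosomes and above that of either sperm group with replicates. Most Lx reads of the spermatids lay in a single row, LX2B, whose levels are given below, while few of those in epididymosomes did. The likeness thus does not carry over to the other Lx rows.

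**Figure D2:**
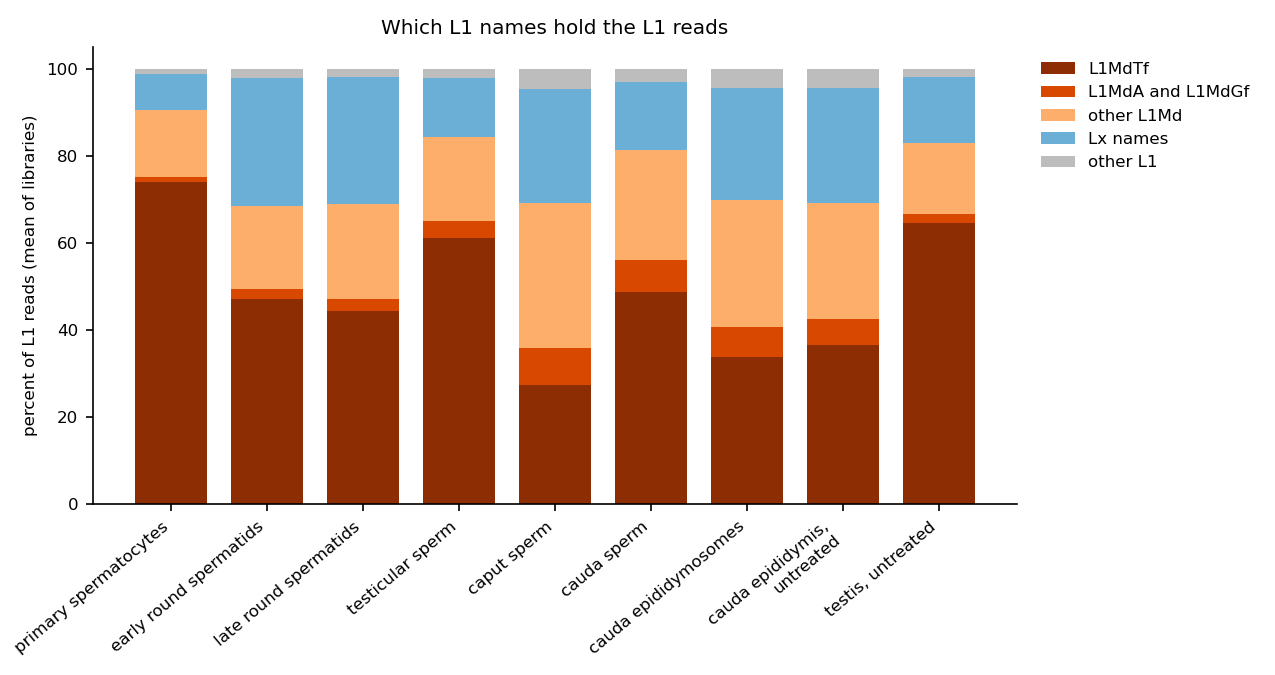
Percent of L1 reads held by each set of L1 names (L1MdTf, L1MdA and L1MdGf, other L1Md, Lx and other L1), as the mean over the libraries of each stage of the maturation table and of untreated cauda epididymis and testis tissue. L1MdTf is the largest set in spermatocytes at 73.9%, and Lx names reach 29.5% in early round spermatids, most of it from LX2B.

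Single members moved apart from the sum. L1MdTf_I, the most abundant member of the maturation table, had 127 CPM in spermatocytes, 41.2 and 36.6 CPM in early and late spermatids, and 35.3, 61.8, 37.0 and 85.4 CPM in testicular sperm. It had 14.6 CPM in caput sperm, 7.02 to 19.7 CPM in cauda sperm (median 11.8), and 3.88, 3.86 and 4.42 CPM in epididymosomes. LX2B, a row of 610 bases named for an old Lx family, was instead highest in spermatids. It had 8.97 CPM in spermatocytes, 33.1 and 33.4 CPM in the spermatids, 5.56 to 9.71 CPM in testicular sperm, 3.21 CPM in caput sperm, 0.335 to 2.07 CPM in cauda sperm (median 1.26) and 0.375 to 0.728 CPM in epididymosomes. Per length, LX2B stood at 54.2 and 54.7 CPM per kb in the spermatids against 5.58 and 4.95 CPM per kb for L1MdTf_I there, while in spermatocytes the order was reversed, with 14.7 CPM per kb for LX2B and 17.1 for L1MdTf_I.

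The L32 pseudogene was instead highest in caput sperm and epididymosomes. Its level was 1.22 CPM in spermatocytes, 1.55 and 0.757 CPM in spermatids, and 9.09, 2.95, 4.08 and 2.65 CPM in testicular sperm. It was 67.6 CPM in caput sperm, 2.07 to 14.4 CPM in cauda sperm (median 3.08), and 26.0, 30.5 and 24.9 CPM in epididymosomes. Per length it led every other member there, with 166 CPM per kb in caput sperm and 66.7 in epididymosomes. The Rpl32 gene itself had 2.91 CPM in caput sperm, 1.44 to 1.62 CPM in epididymosomes and 0 to 0.207 CPM in testicular sperm; the sources do not say how reads matching both the gene and its processed copies were assigned. SINE rows were near the detection limit: B1 had at most 0.855 CPM and B2 at most 0.523 CPM in any library of the table. RMER15, an ERV-classed row, had 6.62 CPM in spermatocytes and at most 0.789 CPM in cauda sperm.

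Set against testicular sperm, cauda sperm carried fewer repeat fragments: 39.9 to 124 CPM (70.3 ± 30.5, n = 7), against 147 to 259 CPM in testicular sperm (194 ± 47.0, n = 4), a ratio of means of 0.36 with no overlap. Of 44 members tested with edgeR, 22 were lower and 2 higher in cauda sperm, where 31.7% of all rows tested were lower and 36.0% higher. The median member had a log2 fold change of -0.82 and the median of all rows was 0.35; with library totals these were -1.31 and -0.01, with 23 members lower and 0 higher. In bulk samples such as these, fewer cells of a type and less RNA per cell cannot be told apart. The young L1MdTf rows were lower in all 3 of 3, the other L1Md rows in 8 of 13, the Lx rows in 5 of 12 with 1 higher, and the L1MdA and L1MdGf rows in 1 of 3.

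LX2B fell by 2.23 ± 0.38 on the log2 scale (standard error, edgeR's quasi-likelihood test, Benjamini-Hochberg adjusted p = 8.4e-06), and no cauda sperm library reached the lowest testicular one. L1MdTf_I, with the values given above, fell by 1.82 ± 0.32 (adjusted p = 1.1e-05). L1MdTf_II had 5.40 to 18.9 CPM in cauda sperm (7 libraries) and 22.9, 35.4, 29.4 and 53.8 CPM in testicular sperm. It fell by 1.42 ± 0.32 (adjusted p = 0.0003), whereas L1MdTf_III fell by 0.92 ± 0.33 (adjusted p = 0.014), a call lost when either cauda sperm replicate 4 or testicular sperm replicate 4 was left out. L1MdF_II, of an older L1Md family, had 0.600 to 2.28 CPM in cauda sperm, against 7.23, 10.2, 4.70 and 12.9 CPM in testicular sperm, and fell by 2.06 ± 0.35 (adjusted p = 9.6e-06).

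The other groups split. The major satellite GSAT_MM rose in cauda sperm, with 0.750 to 4.49 CPM (median 1.87), against 0.826, 0.983, 1.67 and 0.776 CPM in testicular sperm (log2 fold change 1.37 ± 0.44, edgeR adjusted p = 0.0071), although the groups overlapped and the change was 0.95 with library totals in place of trimmed mean scaling (adjusted p = 0.148). L32 did not pass (0.62 ± 0.44, edgeR adjusted p = 0.204), but it did without cauda sperm replicate 4 (0.98, adjusted p = 0.0485) or testicular sperm replicate 1 (0.99, adjusted p = 0.0478). Of the ERV-classed members 4 of 8 were lower: RMER15, at 0.0667 to 0.789 CPM in cauda sperm and 1.24 to 3.56 CPM in testicular sperm, fell by 2.70 ± 0.44 (adjusted p = 4e-06). MYSERV, at 0 to 1.28 CPM in cauda sperm, had 18.2, 0.491, 0.247 and 1.94 CPM in testicular sperm; its change of -2.37 ± 0.87 (edgeR adjusted p = 0.025) was -0.19 without testicular sperm replicate 1, the library at 18.2 CPM. Over the table, 44 of the 66 LTR names tested were lower and 5 higher (median -1.97), as were 384 and 4 of 460 piRNA rows (median -3.11). In a list of 22 genes of the piRNA pathway and repeat silencing, 11 of 14 tested were lower and 0 higher. Fragments of Piwil1 and Piwil2, which encode PIWI proteins, fell by 3.08 ± 0.41 and 3.75 ± 0.39 on the log2 scale (edgeR adjusted p = 1.61e-07 and 9.75e-10).

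Other features moved with this comparison. Ribosomal RNA took 2.02% to 7.17% of cauda sperm libraries and 15.3% to 37.3% of testicular ones. The summed level of 7 epididymal epithelium markers was 35.5 to 475 CPM in cauda sperm and 1.81 to 119 CPM in testicular sperm, and the blood markers were at 0.333 to 3.71 CPM in cauda sperm and 3.11 to 169 CPM in testicular sperm. The part of the markers in the result was not tested; with no ribosomal row in the totals the summed log2 difference was -1.80, against -1.46 with them. Among libraries whose titles end in the same date, 15 of 39 members tested were lower and 1 higher, with L1MdTf_I at -2.08 ± 0.31 and LX2B at -2.29 ± 0.42. The share of all rows called in that fit is not given here. Without cauda sperm replicate 4, 14 members were called in place of 24.

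Whole sperm of the head and tail table gave a comparison in other libraries. The members had 48.7 to 175 CPM in whole cauda sperm (116 ± 45.6, n = 6), against 243 and 360 CPM in whole testis sperm. Of 56 members tested, 16 were lower and 0 higher in cauda sperm, where 27.4% of all rows were lower and 18.2% higher (median member -0.73, median of all rows -0.20). The members were thus lower about as often as all rows, but higher less often. Of the 16 lower members, 10 (62.5%) were among the 22 lower in the maturation table (45.5% of those). This overlap was not tested against the share of tested members that were lower there, given above, so it does not by itself show that the same members fell. L1MdTf_I had 7.91 to 23.8 CPM in whole cauda sperm, against 65.3 and 84.6 CPM in whole testis sperm (-2.13 ± 0.45, edgeR adjusted p = 0.00044). LX2B had 0.946 to 4.40 CPM in cauda sperm, against 14.6 and 12.0 CPM in testis sperm (-1.95 ± 0.38, adjusted p = 0.00017). RMER15 had 0.344 to 0.740 CPM in cauda sperm, against 3.71 and 4.42 CPM in testis sperm (-2.87 ± 0.51, adjusted p = 7.7e-05). In these 3 members no cauda library reached the lower testis library.

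All 3 L1MdTf rows, 5 of 13 other L1Md rows, 2 of 14 Lx rows and 6 of 15 ERV-classed rows were lower there. GSAT_MM (0.86 ± 0.49, edgeR adjusted p = 0.147) and L32 (0.57 ± 0.43, adjusted p = 0.285) did not pass, although GSAT_MM did with DESeq2's size factors in edgeR (1.20, adjusted p = 0.0447). The count was 10 without testis whole replicate 2 and 5 without replicate 3, in fits that leave 1 whole testis library and take its spread from the other groups of the table, and L1MdTf_II and L1MdTf_III were lost without replicate 3. With library totals in place of the trimmed mean scaling 8 were lower and 0 higher, and against detergent-washed cauda sperm alone, a comparison chosen after seeing the data, 19 were lower and 3 higher of 62 tested. The shares of all rows called in those fits are not given here. Of the 22 pathway genes, 17 of 19 tested were lower and 0 higher (median -2.70), with Piwil2 at -4.19 ± 0.56 (edgeR adjusted p = 6.14e-06).

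**Figure D3:**
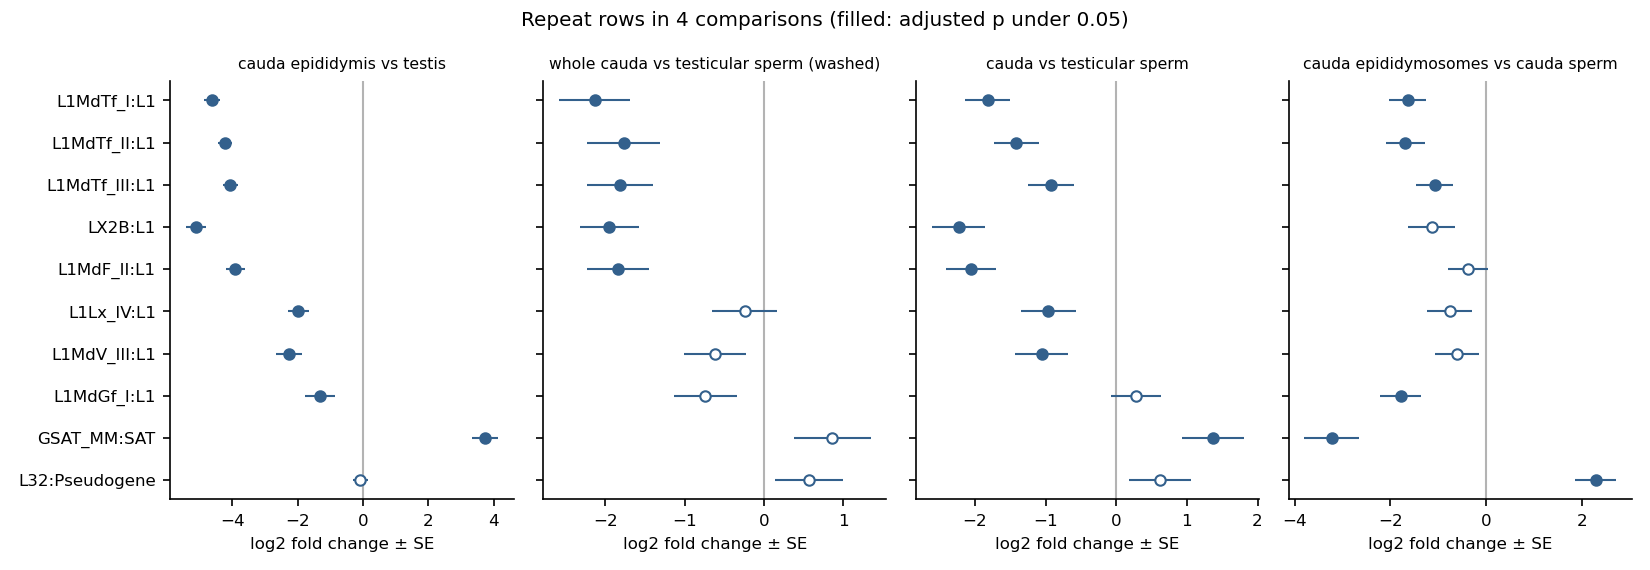
Log2 fold changes (points) with their standard errors (lines) for 10 of the named members in 4 comparisons, from the edgeR fits, each named with the group on top of the fold change first; filled points have an adjusted p under 0.05. L1MdTf_I and LX2B lie below 0 in all 4, GSAT_MM lies above 0 in the 3 comparisons of cauda with testis samples, with an open point for whole sperm, and L32 has a filled point in epididymosomes only.

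Cauda epididymosomes carried a total close to that of cauda sperm but another mixture. They had 70.4, 65.6 and 62.4 CPM, within the 39.9 to 124 CPM of the 7 cauda sperm libraries, while the L1 part was 29.6 ± 2.87 CPM in epididymosomes and 54.5 ± 23.0 CPM in cauda sperm. L1 was 44.8% ± 3.1 of the members' reads in epididymosomes and 77.7% ± 3.8 in cauda sperm. Of 44 members tested 1 was higher and 8 were lower in epididymosomes, where 24.8% of all rows were higher and 19.0% lower (median member -0.49, median of all rows 0.51). The epididymosome titles all end in 1 date, and no cauda sperm title ends in it, so that date and sample type cannot be told apart.

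The member that rose was L32, at 26.0, 30.5 and 24.9 CPM in epididymosomes, against 2.07 to 14.4 CPM in cauda sperm (log2 fold change 2.28 ± 0.43, edgeR adjusted p = 7.4e-05), with no overlap. The Rpl32 gene rose as well (2.35 ± 0.54, adjusted p = 0.000805). GSAT_MM fell, with 0.438, 0.112 and 0.208 CPM in epididymosomes and 0.750 to 4.49 CPM in cauda sperm (-3.22 ± 0.57, adjusted p = 3.6e-05). L1MdTf_I, at 3.86 to 4.42 CPM in epididymosomes and 7.02 to 19.7 CPM in cauda sperm, fell by 1.64 ± 0.40 (adjusted p = 0.0013). L1MdGf_I, of another young family, had 0.671 to 0.780 CPM in epididymosomes and 1.35 to 4.10 CPM in cauda sperm, and fell by 1.79 ± 0.43 (adjusted p = 0.0013). L1MdMus_I had 0.660 to 12.8 CPM in cauda sperm and fell by 2.49 ± 0.68 in epididymosomes (edgeR adjusted p = 0.0051). In these 3 libraries the epididymal markers summed to 281 to 313 CPM and the sperm mRNA markers to 15.3 to 22.2 CPM, against 35.5 to 475 and 37.0 to 149 CPM in cauda sperm, and their part was not tested. Of 14 pathway genes tested 7 were lower and 0 higher.

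Fusion of testicular sperm with caput epididymosomes asks what the vesicles hand over. The fused sperm had 228 and 152 CPM of repeat fragments, against 145 and 136 CPM in the mock, and no member of 33 tested passed in either direction, where 6.84% of all 5844 rows were higher and 0.0342% lower. The count at an unadjusted p under 0.05 was 1 higher and 0 lower, DESeq2 called 0, and without fused replicate 2, which leaves 1 fused library assumed to vary like the mock, the count was 1. Fused and mock libraries of 1 number share the ending of their titles, and with that number as a block 1 member was called, L32. L32 had 9.35 and 10.1 CPM (104 and 161 reads) in fused sperm, against 3.81 and 3.81 CPM (37 and 49 reads) in the mock, a log2 fold change of 1.25 ± 0.44 (edgeR adjusted p = 0.127). The L32 groups did not overlap; the change did not pass, and with the replicate number as a block it did (1.25, edgeR adjusted p = 0.0434). The higher total of fused replicate 1 came with L1MdGf_I, which had 81.7 CPM (909 reads) there, 3.06 CPM in fused replicate 2, and 2.78 and 3.34 CPM in the mock; without that library the summed difference was 0.11 on the log2 scale in place of 0.43. L1MdTf_I had 25.0 and 33.1 CPM in fused sperm and 36.1 and 38.6 CPM in the mock. Epididymal markers summed to 171 to 243 CPM in fused sperm and 2.88 to 14.4 CPM in the mock, and ribosomal RNA took 55.4% and 41.1% of the fused libraries and 40.2% and 42.1% of the mock.

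Heads and tails of cauda sperm had similar totals of these fragments, 80.7 to 125 CPM in heads (109 ± 24.8, n = 3) and 78.5 to 166 CPM in tails (125 ± 43.4, n = 4). Of 56 members tested, 7 were higher and 1 lower in heads, where 12.4% of all rows were higher and 24.1% lower (median member -0.18, median of all rows -0.68). The share of all repeat reads was 33.0% ± 13.1 in heads (19.2% to 45.2%) and 18.8% ± 3.68 in tails (13.4% to 21.0%). The overlap came from the detergent-washed head library at 19.2%.

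L1MdA and L1MdGf names were 8.04% ± 0.92 of L1 reads in heads and 3.49% ± 0.41 in tails, with no overlap. These 9 rows were pooled by name, and the age of each numbered row was not assessed. Of the 5 tested, 3 were higher in heads, and only L1MdGf_I of these 3 kept its call whichever library was left out. L1MdGf_I had 5.69, 3.93 and 2.89 CPM in heads, against 1.96, 0.724, 1.27 and 2.01 CPM in tails (1.72 ± 0.36, edgeR adjusted p = 0.0005). L1MdA_VI had 1.95, 1.06 and 0.789 CPM in heads, against 0.931, 0, 0 and 0.818 CPM in tails (1.85 ± 0.56, adjusted p = 0.011), with groups that overlap. L1MdV_I, L1MdGf_II, LX5c, RMER10A and RMER21B made up the rest, with changes of 1.25 to 2.22, of which L1MdV_I had 3.49, 4.75 and 2.10 CPM in heads and 0.580 to 2.27 CPM in tails. LX5c, RMER10A and RMER21B are named here because the count was small, after their values were seen. LX2B fell, with 2.68, 2.05 and 2.76 CPM in heads and 7.65, 4.35, 5.08 and 10.04 CPM in tails (-1.23 ± 0.34, adjusted p = 0.0064), but it was -0.68 with DESeq2's size factors in edgeR (adjusted p = 0.151). L1MdTf_I did not pass (-0.29 ± 0.40, edgeR adjusted p = 0.585).

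These calls depended on the scaling: with library totals alone 1 member was higher, L1MdGf_I, and 1 lower, LX2B, with DESeq2's size factors 12 and 0, and in DESeq2 13 and 0. Without cauda head hypotonic replicate 2 the count was 4, and without cauda tail hypotonic replicate 1 it was 5. With 1 library left out at a time, L1MdGf_II lost its call in 5 of 7 fits, LX5c in 4 and RMER21B in 3. L1MdA_VI and L1MdV_I lost theirs in 1 fit each. L1MdGf_I and LX2B kept theirs in all 7, and RMER10A in the 6 fits that tested it. The piRNA rows, which stood at 40366 CPM on average in heads and 216826 CPM in tails, were lower in 290 of 460 and higher in 5, and 8 of 19 pathway genes tested were lower and 0 higher. In testis sperm, heads had 256 to 325 CPM (289 ± 34.5, n = 3) and tails 250 and 341 CPM, and 0 of 56 members were called with edgeR, where 0.0% of all 9706 rows were. At an unadjusted p under 0.05 there were 0 higher and 4 lower, and DESeq2 called 0.

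Washing cauda sperm with detergent asks which small RNAs sit on the outside. The wash libraries held more repeat fragments than cauda sperm of the other tables: 412 to 517 CPM in unwashed sperm (475 ± 44.2), 386 to 454 CPM after the low wash (411 ± 29.3), 471 to 592 CPM after the mid wash (519 ± 50.4) and 462 to 618 CPM after the high wash (519 ± 70.3, n = 5 each). The epididymal markers in these libraries summed to 1565 to 6656 CPM. With edgeR 0 of 58 members were called after the low wash, where 0.0713% of all 12614 rows were, and 0 after the high wash, where 1.45% of all rows were lower and 0.111% higher. At an unadjusted p under 0.05 there were 0 higher and 6 lower after the low wash and 0 higher and 12 lower after the high wash, and DESeq2 called 0 for the high wash. With the wash set as a block, 5 members of 63 were lower after the high wash: L1MdTf_III (-0.44), L1Lx_IV (-0.58), L1Lx_III (-0.53), L1MdF_I (-0.75) and L1MdGf_I (-0.55). The share of all rows called in that fit is not given here. Whether members were called there more often than other rows is thus not known. Without the block but also without high wash replicate 1, L1Lx_IV was called (-0.79). The median member was at -0.41 in this comparison with trimmed mean scaling, where the median row was at 0.02, and at -0.01 with library totals, where the median row was at 0.45.

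L32 was the most abundant member here, with 71.2, 163, 175, 62.2 and 61.1 CPM after the high wash in sets 1 to 5, against 67.9, 108, 103, 39.7 and 39.5 CPM in unwashed sperm. Its level was above that of the unwashed library in each of the 5 sets. In the fit without the set block its change of 0.15 ± 0.27 did not pass (edgeR adjusted p = 0.889). L32 was also not among the 5 members called with the set as a block. Its levels differed more between sets than between washes, a comparison that was not tested. L1MdTf_I had 41.4, 51.9, 50.8, 60.5 and 63.2 CPM after the high wash and 39.5, 41.5, 45.2, 48.4 and 46.9 CPM in unwashed sperm. It was likewise higher in each set as a share of the library, and -0.07 ± 0.26 in the scaled fit without the set block (edgeR adjusted p = 0.95). With that block L1MdTf_I was not called either. With library totals the median row of this comparison was higher too, as given above. A higher share of the library was thus not particular to L32 and L1MdTf_I. L1Lx_IV had 18.4, 17.96, 21.0, 16.0 and 11.9 CPM after the high wash and 15.0, 19.7, 21.9, 25.8 and 18.4 CPM in unwashed sperm, lower in 4 of 5 sets. The L1MdTf rows held 35.2% ± 5.3 of L1 reads after the high wash and 31.9% ± 0.9 in unwashed sperm.

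**Figure D4:**
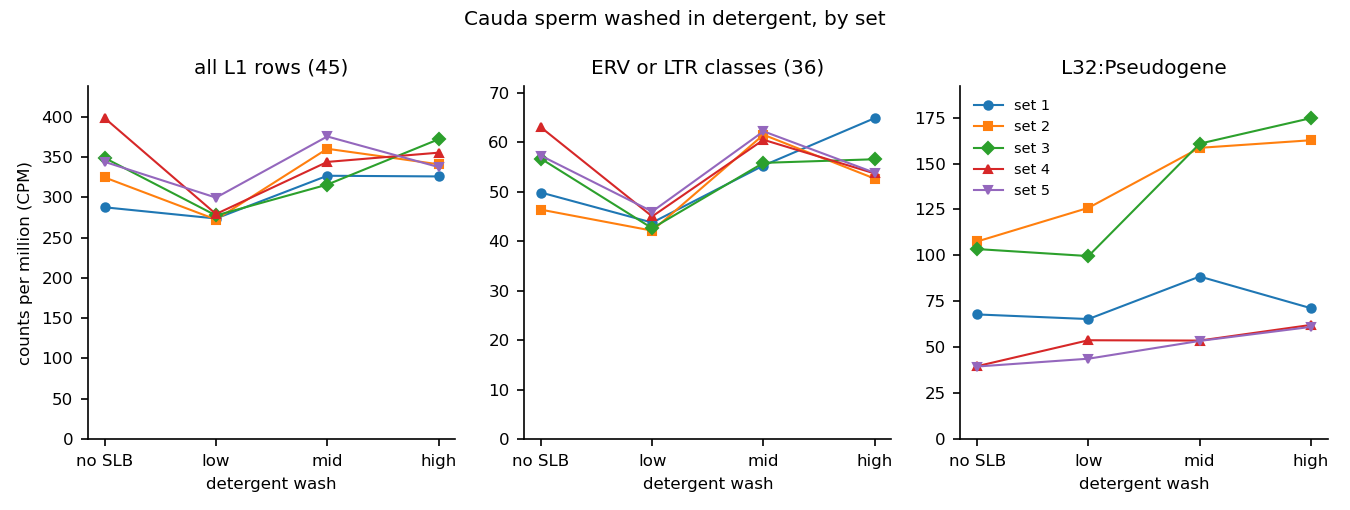
CPM of the summed L1 rows, of the summed ERV-classed or LTR-classed members and of L32 in cauda sperm by detergent wash, with the libraries of each of the 5 sets joined by a line. The L1 levels lie at 287.5 to 398 CPM in unwashed sperm, 272 to 299.5 CPM after the low wash, 316 to 375 CPM after the mid wash and 326 to 372 CPM after the high wash, and in L32 sets 2 and 3 lie above the others at every wash.

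In untreated tissue the cauda epididymis held far fewer repeat fragments than the testis: 26.5 to 39.8 CPM in epididymis (35.0 ± 6.28, n = 4), against 223 to 241 CPM in testis (232 ± 8.13, n = 4). As a share of all repeat reads they were 9.79% ± 0.84 in epididymis and 22.9% ± 0.50 in testis. Of 31 members tested, 29 were lower and 1 higher in epididymis, where 50.4% of all 1207 rows were lower and 45.5% higher (median member -2.84, median of all rows -0.62). All 25 L1 rows tested were lower, as were 43 of 49 LTR names and 456 of 458 piRNA rows.

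L1MdTf_I had 2.12, 3.69, 5.43 and 3.05 CPM in epididymis, against 66.3, 67.9, 69.5 and 70.7 CPM in testis (-4.63 ± 0.24, edgeR adjusted p = 7.3e-12). LX2B had 0.101, 0.852, 0.247 and 0.792 CPM in epididymis, against 13.1, 13.0, 18.3 and 18.7 CPM in testis (-5.11 ± 0.31, adjusted p = 7.8e-11). The old L1Lx_IV fell by 1.98 ± 0.31 (adjusted p = 1.4e-05). The young L1MdGf_I passed with trimmed mean scaling (-1.32 ± 0.45, edgeR adjusted p = 0.0104) but not with library totals (-1.01, adjusted p = 0.0767) or DESeq2's size factors (-0.73, adjusted p = 0.181). GSAT_MM was the member that rose, with 3.64, 6.25, 4.20 and 5.77 CPM in epididymis, against 0.477, 0.0777, 0.489 and 0.143 CPM in testis (3.73 ± 0.40, adjusted p = 1.5e-07). L32 had 4.07 to 4.69 CPM in epididymis and 3.26 to 4.97 CPM in testis, and did not pass (-0.08 ± 0.24, edgeR adjusted p = 0.738), whereas with DESeq2's size factors it was higher in epididymis (0.48, adjusted p = 0.0422). The tissue tables hold no gene rows, so cell type marker genes could not be summed there.

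The enzyme treatments ask which RNA ends and modifications keep a fragment from being cloned. PNK adds a phosphate to a 5′ hydroxyl end and removes 3′ phosphates; the form sold as 3 minus lacks the 3′ activity. RPPH trims 5′ caps and triphosphates to a single phosphate, and AlkB removes methyl groups from bases. The comparisons with PNK 3 minus and AlkB were added after their values were seen.

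**Figure D5:**
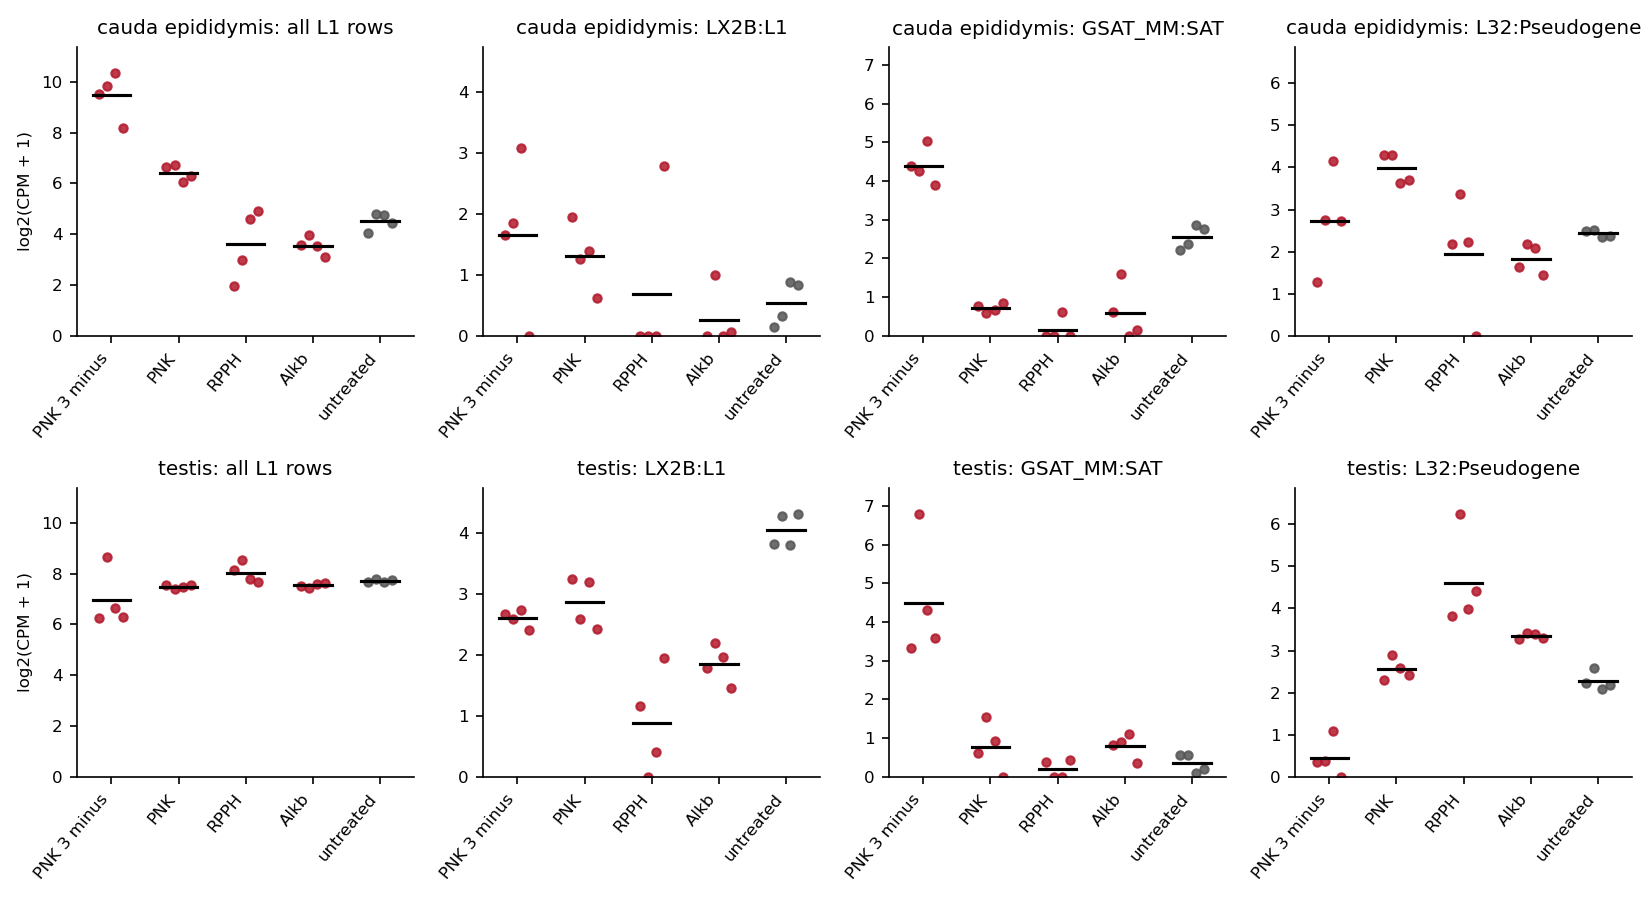
Log2(CPM + 1) of the summed L1 rows, LX2B, GSAT_MM and L32 in cauda epididymis (top) and testis (bottom) after each enzyme and untreated, with 1 point per library and a bar at the mean. In epididymis the L1 rows lie above the untreated libraries after PNK 3 minus and PNK, while in testis LX2B lies below the untreated libraries after every enzyme.

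In epididymis the members stood at 91.8 to 147 CPM with PNK (119 ± 26.3, n = 4), against 26.5 to 39.8 CPM untreated, and their share of repeat reads was 16.5% ± 2.56 with PNK and 9.79% ± 0.84 untreated. Of 32 members tested, 22 were higher and 1 lower, where 32.9% of all 1094 rows were higher and 35.2% lower (median member 1.37, median of all rows 0.12). Among LTR names 7 of 23 were higher and 1 lower (median 0.82), and among piRNA rows 180 of 450 were higher and 130 lower (median 0.37). The Lx rows were higher in 11 of 12, the other L1Md rows in 6 of 10 and the L1MdTf rows in 2 of 3. L1Lx_IV had 6.57, 3.08, 7.28 and 4.14 CPM with PNK, against 0.607, 1.80, 1.73 and 1.58 CPM untreated (1.32 ± 0.42, edgeR adjusted p = 0.0057). L32 had 18.6, 11.3, 18.7 and 11.9 CPM with PNK, against 4.07 to 4.69 CPM untreated (1.16 ± 0.41, adjusted p = 0.011). GSAT_MM was the member that fell, with 0.717, 0.598, 0.520 and 0.802 CPM with PNK, against 3.64 to 6.25 CPM untreated (-3.45 ± 0.47, adjusted p = 3.2e-08). L1MdTf_I rose by 0.84 ± 0.37 (adjusted p = 0.041) but was 0.78 with adjusted p = 0.05003 when the replicates were paired. Without acid untreated replicate 1 both L1MdTf calls were lost (L1MdTf_I 0.73, edgeR adjusted p = 0.13, and L1MdTf_II 0.90, adjusted p = 0.0702). Ribosomal RNA took 22.9% to 35.98% of the PNK libraries and 5.86% to 7.74% of the untreated ones; with all ribosomal rows taken out of the totals the summed difference was 2.19 on the log2 scale, against 1.77 with them.

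PNK 3 minus gave the highest levels of the series in epididymis, 341 to 1463 CPM (912 ± 463, n = 4), against 35.0 ± 6.28 CPM untreated, with a share of repeat reads of 35.2% ± 9.84. Of 32 members tested 25 were higher and 1 lower, where 31.0% of all rows were higher and 57.0% lower. The median member was at 2.94 and the median of all rows at -1.97 (4.98 and -0.03 with library totals). The LTR names rose as well, with 14 of 23 higher and 4 lower (median 1.73), as did the piRNA rows, with 290 of 450 higher and 57 lower (median 1.96). L1Lx_IV had 157, 265, 151 and 50.4 CPM with PNK 3 minus, against 0.607 to 1.80 CPM untreated (4.64 ± 0.43, edgeR adjusted p = 5e-14). L1MdTf_I had 132, 199, 164 and 38.3 CPM, against 2.12 to 5.43 CPM untreated (3.16 ± 0.38, adjusted p = 1.3e-10). L1MdV_III had 36.5, 110, 42.3 and 27.99 CPM, against 0 to 1.14 CPM untreated (4.09 ± 0.48, adjusted p = 9.5e-11). The ERV-classed MLTR25A had 10.3 to 33.6 CPM with PNK 3 minus and 0 to 0.303 CPM untreated (4.70 ± 0.60, adjusted p = 4.8e-10). The groups did not overlap in any of these 4 members.

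GSAT_MM had 20.03, 31.7, 18.3 and 13.995 CPM with PNK 3 minus and 3.64 to 6.25 CPM untreated, and its change with trimmed mean scaling was 0.00 ± 0.41 (edgeR adjusted p = 0.994), against 2.02 with library totals (adjusted p = 0.000265). L32 had 1.43, 16.8, 5.74 and 5.60 CPM with PNK 3 minus and overlapped with the untreated libraries; its change was -1.53 ± 0.50 (edgeR adjusted p = 0.0044) with trimmed mean scaling and 0.55 with library totals. Ribosomal RNA took 38.1% to 77.0% of these libraries, and without any ribosomal row the summed difference was 5.88 on the log2 scale, against 4.70 with them.

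After RPPH and AlkB the epididymis had no library above the highest untreated one. RPPH libraries had 7.13 to 33.0 CPM (25.1 ± 12.2), against 26.5 to 39.8 CPM untreated, with 1 member higher and 1 lower of 32, where 3.75% of all rows were higher and 33.7% lower. AlkB libraries had 11.7 to 25.6 CPM (17.4 ± 5.90), against the same 26.5 to 39.8 CPM, again with 1 higher and 1 lower, where 10.4% of all rows were higher and 24.4% lower. The member lower in both was GSAT_MM, with 0, 0.523, 0 and 0 CPM after RPPH (-4.24 ± 0.98, edgeR adjusted p = 0.00034) and 0.529, 0, 2.01 and 0.102 CPM after AlkB (-2.79 ± 0.57, edgeR adjusted p = 6.5e-05), against 3.64 to 6.25 CPM untreated. All RPPH and AlkB libraries lay below the untreated ones in this member. The members higher were LX5 after RPPH (4.05 ± 1.55, edgeR adjusted p = 0.034) and MYSERV after AlkB (2.12 ± 0.86, adjusted p = 0.0496), both named after their values were seen, and MYSERV was lost with the replicate block (2.04, edgeR adjusted p = 0.0575). LX5 was -1.39 without base RPPH replicate 2. The RPPH count was 4 without acid RPPH replicate 2 and 1 without base RPPH replicate 2 or acid untreated replicate 2.

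In testis PNK left the members at 194 to 211 CPM (204 ± 8.33), against 223 to 241 CPM untreated (232 ± 8.13), without overlap. No member of 32 was called with edgeR, where 10.5% of all 1100 rows were higher and 0.273% lower; 1 was higher and 0 lower at an unadjusted p under 0.05, and DESeq2 called 1 lower. LX2B had 8.49, 8.12, 5.04 and 4.39 CPM (97, 98, 47 and 1 reads) with PNK, against 13.0 to 18.7 CPM untreated (-1.09 ± 0.56, edgeR adjusted p = 0.312). The groups did not overlap, although the lowest value is 1 read in a library of 228043. LX2B was the member that passed in DESeq2 (-1.16, adjusted p = 0.000548).

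RPPH in testis gave 238 to 540 CPM (335 ± 140), against 223 to 241 CPM untreated, with 1 member higher and 1 lower of 32, where 11.2% of all rows were higher and 7.64% lower. L32 had 13.0, 14.8, 74.2 and 20.1 CPM after RPPH, against 3.26 to 4.97 CPM untreated (2.42 ± 0.51, edgeR adjusted p = 0.0033). LX2B had 1.24, 0.328, 0 and 2.87 CPM after RPPH, against 13.0 to 18.7 CPM untreated (-3.45 ± 0.63, adjusted p = 0.0012). Neither pair of groups overlapped, and without base RPPH replicate 1, the library at 74.2 CPM with 484914 reads, 4 members were called. AlkB in testis gave 200 to 222 CPM (212 ± 11.1), against 223 to 241 CPM untreated, and LX2B was again the 1 member called of 32, where 3.36% of all rows were higher and 7.82% lower. It had 2.45, 2.88, 3.58 and 1.73 CPM after AlkB, against 13.0 to 18.7 CPM untreated (-2.39 ± 0.57, edgeR adjusted p = 0.0074). L32 had 8.73 to 9.74 CPM after AlkB and did not pass (1.41 ± 0.50, edgeR adjusted p = 0.0768), although it did in DESeq2 (1.45, adjusted p = 0.00366).

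PNK 3 minus in testis gave 96.6, 129, 571 and 100 CPM, against 223 to 241 CPM untreated, so that 3 libraries lay below every untreated one and 1 above. The summed log2 difference was -0.05, and -1.09 without the library at 571 CPM. L1MdTf names held 34.8% ± 0.95 of L1 reads with PNK 3 minus and 64.5% ± 1.16 untreated, and Lx names 37.0% ± 3.84 with PNK 3 minus and 15.2% ± 1.16 untreated. Of 32 members tested 12 were higher and 1 lower, where 23.3% of all rows were higher and 18.1% lower (median member 1.04, median of all rows -0.01). Among LTR names 12 of 48 were higher and 3 lower (median -0.19), and among piRNA rows 180 of 458 were higher and 16 lower (median 0.72). With the replicate number as a block, 4 were higher and 1 lower of 34. GSAT_MM had 8.98, 19.0, 109 and 10.9 CPM with PNK 3 minus, against 0.0777 to 0.489 CPM untreated (7.75 ± 0.98, edgeR adjusted p = 3.1e-06). L1Lx_IV had 9.82, 15.6, 83.5 and 11.6 CPM with PNK 3 minus, against 3.29 to 5.32 CPM untreated (3.77 ± 0.78, adjusted p = 0.00049). LX5c had 4.64 to 7.64 CPM, against 0.409 to 1.22 CPM untreated (4.11 ± 0.67, adjusted p = 5.1e-05). In all 3 the groups did not overlap.

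L32 fell, with 0 to 1.13 CPM with PNK 3 minus, against 3.26 to 4.97 CPM untreated (-2.12 ± 0.63, edgeR adjusted p = 0.0095). L1MdTf_I, at 9.82, 16.4, 59.1 and 12.3 CPM with PNK 3 minus and 66.3 to 70.7 CPM untreated, did not pass (-0.41 ± 0.55, edgeR adjusted p = 0.604). It did with library totals (-1.52, adjusted p = 0.00621) and without base PNK 3 minus replicate 1, the library at 59.1 CPM (-1.63, adjusted p = 0.00384). With library totals in place of trimmed mean scaling 3 members were higher and 6 lower. Ribosomal RNA took 22.4% to 54.4% of the PNK 3 minus libraries and 0.949% to 1.64% of the untreated ones; with no ribosomal row in the totals the summed log2 difference was 0.84. Without base PNK 3 minus replicate 1, the library at 571 CPM, 7 members were called. The count was 4 without acid untreated replicate 1 or base untreated replicate 2, 5 without base untreated replicate 1 and 8 without acid untreated replicate 2.

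Sperm cloned with and without PNK were sequenced to a low depth, with 40 to 131 reads on all members per library, so only 10 members could be tested. Caput sperm with PNK had 376 to 420 CPM of repeat fragments (404 ± 24.6, n = 3), against 127 to 256 CPM without (183 ± 66.0, n = 3), and 6 members were higher and 0 lower, where 12.8% of all 1489 rows were higher and 27.1% lower. L1MdTf_I had 87.4, 40.6 and 48.1 CPM (21, 8 and 15 reads) with PNK, against 30.7, 6.40 and 9.16 CPM (21, 1 and 7 reads) without (1.68 ± 0.48, edgeR adjusted p = 0.0069). L1MdTf_II, L1MdTf_III, L1MdGf_I, L1MdV_III and RMER6D, the others, changed by 1.51 to 2.75. The count was 1 without caput no-kinase replicate 3 and 0 without the filter on low rows, and L1MdGf_I was lost when the replicates were paired (1.93, edgeR adjusted p = 0.13).

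Cauda sperm with PNK had 53.2 to 82.3 CPM (69.6 ± 14.9), against 33.2 to 67.9 CPM without (48.9 ± 17.6). The summed log2 difference was 0.51, and 1.90 with no ribosomal row in the totals (1.14 and 1.99 for caput sperm). In cauda sperm 2 members were higher and 0 lower with PNK, where 32.7% of all rows were higher and 28.8% lower. These were L1MdV_III, with 6.62, 3.02 and 0.739 CPM with PNK and 0.395, 0.466 and 1.28 CPM without (2.72 ± 0.80, edgeR adjusted p = 0.0051), and RMER6D (2.54 ± 0.98, adjusted p = 0.027). Both overlapped between the groups, DESeq2 called 0, with the replicate number as a block 1 of 13 was called, and L1MdV_III was lost without cauda PNK replicate 1 (1.95, edgeR adjusted p = 0.0881). The count was 1 without cauda PNK replicate 2 or any 1 of the 3 libraries without kinase, and 0 without cauda PNK replicate 1. Without kinase, cauda sperm had 33.2 to 67.9 CPM, against 127 to 256 CPM in caput sperm, with 3 members lower and 0 higher, where 33.6% of all rows were lower and 17.7% higher. MYSERV, an ERV-classed row, had 0, 0 and 2.56 CPM (0, 0 and 4 reads) in cauda sperm, against 19.0, 95.9 and 14.4 CPM (13, 15 and 11 reads) in caput sperm (-4.59 ± 0.95, edgeR adjusted p = 0.0006). L32 had 2.76, 3.73 and 1.92 CPM (7, 8 and 3 reads) in cauda sperm, against 7.32, 25.6 and 17.0 CPM (5, 4 and 13 reads) in caput sperm (-1.60 ± 0.60, adjusted p = 0.029), with no overlap. This call was lost without caput replicate 2, caput replicate 3 or cauda replicate 3. The other member lower was L1MdV_III, with 1, 1 and 2 reads in cauda sperm and 6, 0 and 4 in caput sperm (-2.36 ± 0.86, edgeR adjusted p = 0.024). The epididymal markers in these libraries summed to 54.4 to 100 CPM in cauda sperm and 313 to 541 CPM in caput sperm, and their part was not tested. Ribosomal RNA took 48.5% to 65.2% of caput sperm libraries with PNK and 19.2% to 32.1% without, and 53.3% to 75.8% of cauda sperm libraries with PNK and 5.72% to 8.73% without.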

How the data were processed

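The authors deposited read counts per row, with no scaling, for ribosomal RNA, tRNA, microRNA, piRNA and repeat rows, per the file headers. In 5 of the 7 tables the deposited gene rows held expected counts, which are not whole numbers, and they were rounded. The build was mm10 per the submitters' processing notes; the aligner, the counter and how reads matching several repeats were assigned are not given in the sources used here, so near-identical L1 rows, and repeat and piRNA rows, may share reads. The 45S row already counts what the 28S, 18S and 5.8S rows hold, so these 3 were left out of library totals, as were 27 gene rows with names turned into dates (at most 0.0282% of a library). The library total is a sum of counts from 156347 to 56011165, and the members' part of it was 20 to 19120 reads.

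Each table was fitted in R 4.3.3 (edgeR 4.0.16, limma 3.58.1) with all its libraries, except as follows. The maturation fit left out the stages with 1 library, and epididymis was set against testis in a joined fit of the untreated libraries alone. The steps were filterByExpr, trimmed mean of M values (TMM) scaling and a robust quasi-likelihood F test. P-values were adjusted by Benjamini-Hochberg across every row of the fit and called under 0.05. A term was fitted for the wash in the head and tail table and for the acid or base title in the tissue tables. The standard error is the log2 fold change divided by the square root of F. Python 3.11.15, numpy 2.4.6 and pandas 2.3.3 summed the levels, for which no test was made. Alternatives were DESeq2 1.42.0, its size factors in edgeR, library totals alone, no filter, the replicate block, totals without ribosomal rows, libraries of 1 title date and leaving out each library.

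Members and lists were chosen with earlier results of these data known. Members named are the 8 with the highest mean level in each table, up to 6 rises and 6 falls per comparison that passed with at least 5 CPM, and the L1Md, B1, B2 and GSAT_MM rows; others are described where the count was small. The comparisons with PNK 3 minus and AlkB, with detergent-washed sperm alone and without 2 testis libraries were chosen after seeing the data. Same-numbered libraries deviated together (every correlation over 0.1) in both wash comparisons, caput sperm with PNK, epididymis with PNK, PNK 3 minus and AlkB, and testis with AlkB and RPPH, and fused and mock libraries share title endings. Of the wash libraries 1 is titled mid wash but labelled and headed high wash, and was used as high wash replicate 4. Tested on simulated counts, the steps recovered 98.5% of 4-fold changes for epididymis with PNK, 93.8% for cauda against testicular sperm, 66.3% for cauda heads against tails, 61.8% for testis with PNK and 35.9% for the fusion. These shares are over all rows changed in the simulation. Recovery at the read depth of the members was not worked out, so the shares do not describe the members themselves. The other 6 libraries of the series were not analysed here.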

Additional observations from a re-analysis of the deposited data

Results flagged for a closer look

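Among 125 groups and measures of 4 to 10 libraries, 13 had 1 library farther from the rest than Dixon's limit, where chance gives about 1 in 20. Of these, 3 measures come from testis base RPPH replicate 1 and 4 from testis base PNK 3 minus replicate 1.

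Testis base PNK 3 minus replicate 1 (3403092 reads, 54.4% ribosomal RNA) had 571 CPM of the members, against 96.6 to 129 in the other 3 libraries of its group. Its L1 level was 399 CPM (75.2 to 98.5 in the others), its satellite level 111 CPM (9.26 to 20.7) and its ERV-classed level 60.2 CPM (8.49 to 11.5). In the same group the SINE level of base replicate 2 was 1.33 CPM, against 0.281 to 0.294 in the others.

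Testis base RPPH replicate 1 (484914 reads) had 43.3 CPM of SINEs, 21 reads of B2, against 0.929 to 2.87 in the other 3 libraries. Its L32 level was 74.2 CPM (13.0 to 20.1 in the others, 36 reads here) and its ERV-classed level 53.6 CPM (11.5 to 15.8). Testis base PNK replicate 2, with 228043 reads, had a SINE level of 4.39 CPM from 1 read of B1, against 0.414 to 0.612 in the others.

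In the remaining cases the distances were small in level. The L1 level after the low wash was 299.5 CPM in set 5 and 272 to 279 in the others. The share of repeat reads was 13.4% in cauda tail hypotonic replicate 3 and 19.9% to 21.0% in the other tails. The SINE level was 0.256 CPM in epididymis base AlkB replicate 2 and 0 in the others of its group, and the ERV-classed level was 16.1 CPM in testis base untreated replicate 1, against 16.8 to 16.9 in the others.

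As CPM of the library total, some levels after an enzyme lay in opposite directions in epididymis and testis, with every treated library on 1 side of every untreated one. After PNK the summed members changed by 1.77 on the log2 scale in epididymis and by -0.18 in testis, and the L1 level by 1.96 and -0.24 in the same order. With no ribosomal row in the totals the summed change in testis was -0.039 and the groups overlapped, at 212 to 255 CPM with PNK and 226 to 245 CPM untreated, and in the scaled edgeR fit the median member was at 1.37 in epididymis and 0.24 in testis. After AlkB the satellite level changed by -2.48 in epididymis and 1.89 in testis, and L32 by -0.73 and 1.25. In the scaled edgeR fit L32 went the same way in both, at 0.10 ± 0.46 (adjusted p = 0.885) in epididymis and 1.41 ± 0.50 (adjusted p = 0.0768) in testis, while GSAT_MM was at -2.79 ± 0.57 (adjusted p = 6.5e-05) and 1.54 ± 0.88 (adjusted p = 0.359). The difference between the tissues was not tested.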

How the results depend on the processing

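Member counts, summed levels and the members' share of all repeat reads stayed within 1.5 times, or within the spread between libraries, in 511 of 587 alternatives. The share of repeat reads always did when 1 library was left out, so the count of 511 rests in part on that measure. Of the 85 results for members named in the text, 45 kept direction and side of the threshold under every alternative run. The causes of the changes were not tested, except that no filter and a left-out library change the number of rows or libraries by construction.

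The number of members called was 6 for caput sperm with PNK, and 2 in DESeq2, 0 with no filter and 1 to 5 without 1 library. For cauda sperm with PNK it was 2, and 0 in DESeq2 and with no filter, 1 with library totals and with the replicate block, and 0 to 2 without 1 library. For cauda against caput sperm it was 3, and 1 in DESeq2 and with no filter. For cauda heads against tails it was 8, and 13 in DESeq2, 2 with library totals, 5 with no filter and 4 to 10 without 1 library. For testis heads against tails it was 0, and 1 with the replicate block. For the high wash it was 0, and 5 with the replicate block and 0 to 1 without 1 library. For the fusion it was 0, and 1 with the replicate block and 0 to 1 without 1 library. For whole cauda against testis sperm it was 16, and 8 with library totals and 5 to 17 without 1 library. For cauda against testicular sperm it was 24, and 14 to 25 without 1 library.

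In epididymis the count was 30 against testis and 57 with no filter; 23 with PNK and 50 with no filter; 26 with PNK 3 minus and 51 with no filter. With AlkB it was 2, and 5 with library totals, 1 with the replicate block and 1 to 2 without 1 library. With RPPH it was 2, and 7 in DESeq2, 5 with DESeq2's size factors, 4 with library totals, 6 with no filter and 1 to 4 without 1 library. In testis it was 0 with PNK, and 1 in DESeq2 and 2 without the base libraries of number 1 of PNK 3 minus and RPPH. With RPPH it was 2, and 8 in DESeq2, 4 with DESeq2's size factors and with no filter, 7 without those libraries and 2 to 4 without 1 library. With AlkB it was 1, and 4 in DESeq2 and without those libraries, and 2 with no filter. With PNK 3 minus it was 13, and 23 in DESeq2, 24 with no filter, 5 with the replicate block and 4 to 13 without 1 library. The replicate block changed no other count by over 1.5 times; in testis PNK 3 minus and cauda PNK the paired libraries share a title stem, but not every pair correlated over 0.1, and testis heads and tails share only a letter.

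With no ribosomal row in the totals the summed log2 difference was 1.99 for caput sperm with PNK (1.14 with them), 1.90 for cauda sperm with PNK (0.51), 5.88 for epididymis with PNK 3 minus (4.70), 2.19 for epididymis with PNK (1.77), 0.24 for testis heads against tails (-0.03), 0.84 for testis with PNK 3 minus (-0.05) and -0.039 for testis with PNK (-0.18). Without 1 library it was 0.11 to 0.70 for the fusion and -1.09 to 0.20 for testis with PNK 3 minus.

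Direction turned for L32 in epididymis with PNK 3 minus (0.55 with library totals) and against testis (0.21 in DESeq2, 0.48 with its size factors, 0.20 with library totals). It turned for L1MdTf_I in heads against tails (0.26 in DESeq2, 0.27 with its size factors, -0.51 to 0.05 without 1 library, highest without the detergent head library) and after the high wash (0.27 with library totals, -0.21 to 0.091 without 1 library, above 0 for 4 of them). GSAT_MM in epididymis with PNK 3 minus was -0.053 with the replicate block and -0.10 to 0.86 without 1 library, and LX5 after RPPH was -1.39 to 5.15 without 1 library, lowest without base RPPH replicate 2. Depth limits the sperm cloned with PNK, at 40 to 131 member reads. SINE rows were low in most libraries, and 1 of them passed the filter on low rows, in the wash table only. There the SINEs summed to 1.47 to 6.15 CPM. That row had a log2 fold change of 0.005 after the high wash and -0.05 after the low wash, and was not called.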
